A study of Drosophila melanogaster with 9 samples.

Results

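Small nucleolar RNAs (snoRNAs) are short noncoding RNAs that guide the chemical modification of ribosomal RNA in the nucleolus. Box H/ACA snoRNAs pair with ribosomal RNA and direct the isomerisation of a uridine to pseudouridine by the enzyme Nop60B, the fly dyskerin, whereas box C/D snoRNAs direct the methylation of a ribose by fibrillarin (Fib). In *Drosophila* most of them are cut out of the introns of other genes, many of which encode ribosomal proteins, and some come from noncoding Uhg (U snoRNA host) genes whose only known product is the snoRNA in their introns. FlyBase names the H/ACA guides Psi and the C/D guides Me, each followed by the ribosomal RNA and the position that the guide addresses, and a guide with no known target is an orphan (aca or CD).

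The genes described here were the rows of the deposited FPKM table (fragment counts divided by transcript length and by the mapped fragments of the library) whose symbol begins with snoRNA and whose value was above 0 in at least 3 of the 9 libraries. This rule took 105 of the 243 snoRNA genes in the table and of 17481 genes in all. The members were thus chosen by FPKM in these same libraries, and their being detected is no finding. The members were 76 Psi genes, 9 Me genes, 3 orphan H/ACA genes, 4 orphan C/D genes and 13 snoRNA genes with other names. The prefix is left off the symbols below.

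The libraries came from adult midguts of *Drosophila melanogaster* at 5 to 7 days of age, from GFP-positive cells sorted by flow cytometry and labelled as intestinal stem cells (ISCs). *Dl-Gal4* drove GFP under a temperature-sensitive Gal80 in all groups, together with *gro-RNAi* (genotype label groucho RNAi), with *Notch-RNAi* (label notch RNAi) or with no RNAi (control, label Wild type, titled Dl-GFP). Each group had 3 replicate libraries, numbered as in the labels, and each library pooled the midguts of many flies. The driver follows *Dl*, which marks ISCs in the midgut. *gro* encodes the corepressor Groucho, and *N* encodes the Notch receptor.

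The libraries were estimated to hold between 8110000 and 20000000 reads. *gro* measured 3.69, 13.8 and 9.53 FPKM in *gro-RNAi* libraries and 19.9, 27.8 and 15.3 FPKM in control, which did not overlap but did not pass the test (limma, adjusted p = 0.094), and *N* fell by 1.42 on the log2 scale in *Notch-RNAi* (limma, adjusted p = 0.0024). Over 5 progenitor markers the summed level was 174 to 340 FPKM in *gro-RNAi* and 188 to 218 FPKM in *Notch-RNAi*, against 78.6 to 128 FPKM in control, and 4 of the 5 were higher in each RNAi group by the limma test. Summed markers of visceral muscle, haemocytes and trachea stayed at or below 4.64 FPKM in every library, whereas 8 enteroendocrine markers summed to between 1121 and 2894 FPKM and 6 enterocyte markers to between 134 and 705 FPKM. Of the enteroendocrine markers 1 was called higher in *gro-RNAi*, and 2 were higher and 3 lower in *Notch-RNAi*, while 3 were higher in *gro-RNAi* than in *Notch-RNAi*. No enterocyte marker was called. The part of these cell types in the snoRNA values was not tested. In sorted bulk RNA, fewer cells of a type and less RNA per cell cannot be told apart.

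An FPKM value divides by the effective length of the transcript, so what a value stands for has to be read first. In 97 of the 105 members every value was close to a whole multiple of 1 amount per library, taken as the FPKM of a single read. The amount was set once for each length, from genes of that length or by interpolation over lengths. The tolerance was 0.02 of a read, and wider where reads were many or no gene of that length gave a step. That amount fell steeply with length. In control library 1 a single read was worth 1556 FPKM on the 78 nt Or-CD12, 446 FPKM on the 85 nt Me28S-G2703c, 15.3 FPKM on the 140 nt Psi28S-3385b and 1.22 FPKM on the 268 nt Psi28S-2566. The 76 Psi members, 124 to 268 nt long, had a median of 15.3 FPKM per read, and the 7 Me members with whole reads had a median of 222 FPKM per read. The scaling amounts to an effective length of a median of 5.54 nt for Psi genes and 0.38 nt for Me genes. FPKM of snoRNA genes of different lengths were therefore not taken as relative levels, and reads are given beside them. Some genes named below were still picked by their mean FPKM in control.

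**Figure D1:**
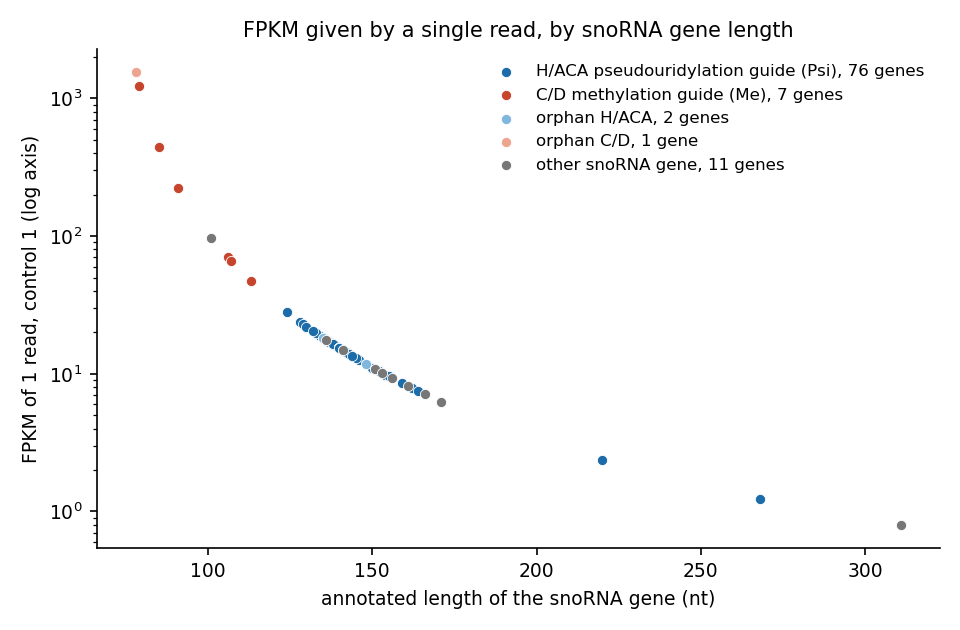
FPKM that a single read gave in control library 1 (log axis) against the annotated length of the gene in nt, for the 97 members with whole reads, coloured by class. One read stood for 1556 FPKM at 78 nt and for 0.795 FPKM at 311 nt.

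Over all 9 libraries the 97 members held 1676 reads. Of their 873 values, 358 were 0, and 252 of the 515 values above 0 stood for exactly 1 read. Only 29 values reached 10 reads. A member had a median of 9 reads over the 9 libraries, with a range of 3 to 251, and 44 members had at least 10. The 5 members with the most reads, Psi28S-2444, Psi18S-531, Psi18S-1086, Psi28S-2566 and Psi28S-1192d, held 35.3% of all snoRNA reads. These numbers cover counting error only, because the RNA was amplified and reads are not independent molecules. Of the members just inside the rule, 26 were above 0 in exactly 3 libraries, with 3 to 20 reads each (median 4). Just outside it, 21 genes were above 0 in 2 libraries, and the 20 of them with whole reads had 2 to 4 reads (median 2).

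By length, of the 57 snoRNA genes in the table of 46 to 79 nt, 2 were members and 54 were at 0 in every library, and of the 121 genes of 124 to 159 nt, 84 were members and 8 were at 0 throughout. By class, 76 of 106 Psi genes (71.7%) but 9 of 73 Me genes (12.3%) were members, and 51 Me genes and 3 Psi genes were at 0 in all 9 libraries. Psi genes in the table had a median length of 140 nt and Me genes of 79 nt. Class and length cannot be told apart here. Among other short RNA genes, the same rule would take 6 of 31 snRNA genes, 2 of 15 scaRNA genes, 20 of 235 miRNA precursor genes and 0 of 295 tRNA genes.

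By position, 99 of the 105 members lay inside another annotated gene on the same strand, in 40 host genes, and 95 of these lay wholly in introns. Ribosomal protein genes were 16 of the hosts and held 41 members, and 5 Uhg genes held 8. *RpS5a* and *Arpc2*, a subunit gene of the Arp2/3 complex, held 12 members each. A read from an intronic snoRNA and a read from the unspliced host transcript cannot be told apart in these values. Many guides exist as near copies, and 53 members fell into 16 families with the same target, such as 8 Psi18S-525 genes and 5 Psi18S-1377 genes. All 53 gave whole reads. Whether reads that match several copies were dropped or given to 1 of them is not stated in the sources used here, so values of a single copy are uncertain.

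The remaining 8 members did not give whole reads. Or-CD9a and Or-CD9b overlapped an exon of *Nop60B*, Or-aca2 an exon of *RpS6* and CG43051-a an exon of *CG43051*. The others were Me28S-A2634c, Me28S-G3253, Or-CD2 and CG31191-a. Values under 0.001 FPKM occurred in 5 of the 8, as low as 1.9e-178 FPKM for Me28S-G3253 in *Notch-RNAi* library 3, and 3 members (Me28S-A2634c, Me28S-G3253 and Or-aca2) met the rule only through such values.

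Summed over the 97 members, snoRNA reads were 117, 95 and 148 in *gro-RNAi* libraries 1 to 3, 356, 397 and 215 in *Notch-RNAi* and 106, 143 and 99 in control. As reads per 1000000 reads of the library (RPM) this was 7.91, 11.7 and 14.0 in *gro-RNAi*, 19.0, 23.1 and 10.8 in *Notch-RNAi*, and 8.98, 10.8 and 8.11 in control. *Notch-RNAi* libraries 1 and 2 stood above every control library, and *Notch-RNAi* library 3 was level with the highest control library. Psi28S-2444 alone held 111 of the 348 control reads. Without it the sums were 6.55, 10.9 and 12.7 RPM in *gro-RNAi* and 16.8, 20.6 and 9.90 RPM in *Notch-RNAi*. Control then stood at 6.61, 6.99 and 5.41 RPM. All *Notch-RNAi* libraries then lay above control and *gro-RNAi* still overlapped it, but the member left out was the one with the most control reads. Without Psi28S-2566, which had no control read, the *Notch-RNAi* sums were 17.4, 21.1 and 10.4 RPM. *Notch-RNAi* library 3 then lay below the highest control library, at 10.8 RPM. Of the members, 32 were at 0 in every control library, 9 in every *gro-RNAi* library and 2 in every *Notch-RNAi* library. The sums are therefore not independent of the rule. The number of members with a read was 45, 53 and 71 in *gro-RNAi*, 78, 82 and 68 in *Notch-RNAi*, and 35, 45 and 38 in control, and the *Notch-RNAi* libraries were also the deepest, at 17200000 to 20000000 reads against 11800000 to 13300000 in control. The part of depth in these detection numbers was not tested.

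**Figure D2:**
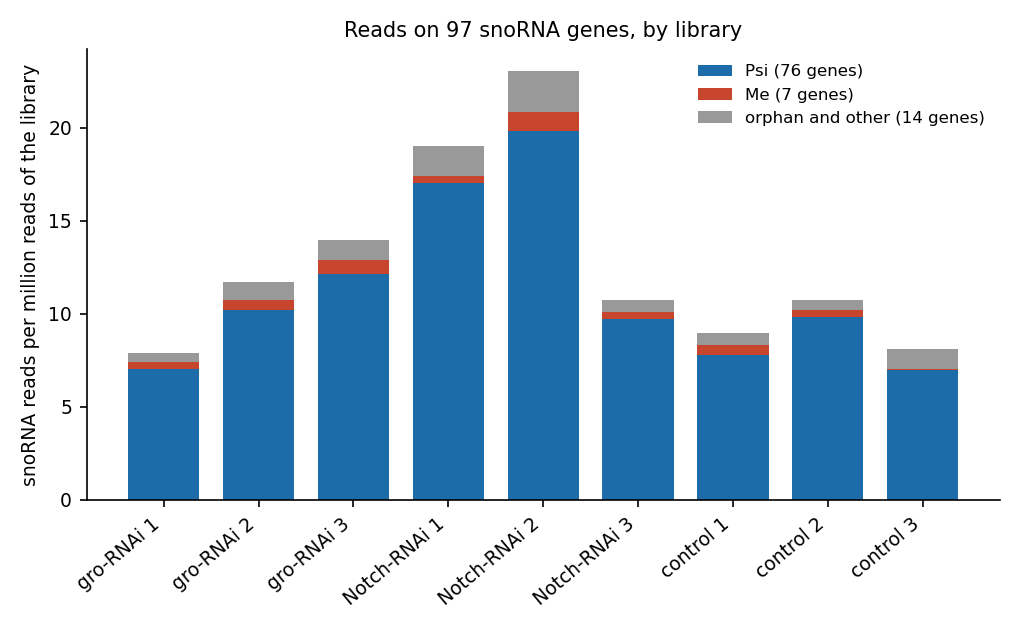
Reads on the 97 members as RPM (reads per 1000000 reads of the library), stacked by class. The *Notch-RNAi* bars stand at 19.0, 23.1 and 10.8 and the control bars at 8.98, 10.8 and 8.11, and Psi genes made up most of every bar.

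The H/ACA guides carried most of these reads. The 76 Psi members had 7.03, 10.2 and 12.2 RPM in *gro-RNAi*, 17.1, 19.8 and 9.70 in *Notch-RNAi*, and 7.80, 9.85 and 6.97 in control. The 7 Me members with whole reads had 6, 4 and 8 reads in *gro-RNAi*, 7, 18 and 8 in *Notch-RNAi*, and 6, 5 and 1 in control. In RPM, the Me genes ranged from 0.405 to 0.755 in *gro-RNAi*, from 0.374 to 1.05 in *Notch-RNAi* and from 0.082 to 0.508 in control, and all 3 ranges overlapped. The FPKM ranked the classes the other way, since the median of the member means was 59.1 FPKM for Me and 14.4 FPKM for Psi genes in *gro-RNAi*, 60.8 and 18.0 FPKM in *Notch-RNAi*, and 29.7 and 4.93 FPKM in control. That order reverses the reads per member, which were 2.57 for Me and 4.16 for Psi genes in *gro-RNAi*, 4.71 and 11.2 in *Notch-RNAi*, and 1.71 and 4.05 in control.

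To ask which snoRNA genes changed on loss of Notch, *Notch-RNAi* was compared with control by limma on log2(FPKM + 0.1) over the 11493 genes that averaged 0.1 FPKM or more, all 105 members among them. Of the members, 20 were higher and none was lower at an adjusted p under 0.05, and 27 had an unadjusted p under 0.05. Of all tested genes 28.7% were called, 24.4% as higher and 4.29% as lower, and the 20 higher members (19.0%) were a smaller share than the background. The median log2 fold change was 3.17 over the members and 0.46 over all tested genes. A gene detected only in one group had to differ, and 32 members were at 0 in every control library, so neither the median nor the count is independent of the rule. After each library was centred on 1 common median, which took the shift of all genes out, 13 members were higher and 2 were lower. Without *Notch-RNAi* library 1, *Notch-RNAi* library 2 or control library 3 the calls numbered 9, 7 and 12. P-values measure only the spread between these libraries.

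The reads behind the 20 calls were few. The 3 control libraries together held no read of 11 of the 20 and 1 to 3 reads of 4 others, and 2 members gave no whole reads, which left 3 with more than 3 control reads. Of the 18 with whole reads, 9 had fewer than 10 reads over all 9 libraries. The lowest adjusted p of all members, 1.2e-05 in the limma test, belonged to Psi18S-525h, with 1 read in each *Notch-RNAi* library and none in *gro-RNAi* or control. Its FPKM of 11.5, 12.5 and 10.8 in *Notch-RNAi* differed only by the depth of the libraries, and its log2 fold change of 6.87 ± 0.31 (SE) rests on the constant of 0.1. In reads, the interval of its ratio to control began at 0.276, so that 3 reads against 0 were within counting error.

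Of the called members, Psi28S-2566 (FBgn0086661, chromosome 3L, 18896189 to 18896456, minus strand, in an intron of *CG3902*) had the most reads with none in control. It is among the longest snoRNA genes of the table and has the name of a guide for 28S ribosomal RNA. It had 1, 4 and 2 reads in *gro-RNAi*, 30, 34 and 7 in *Notch-RNAi*, and 0, 0 and 0 in control. In FPKM it measured 0.973, 7.12 and 2.72 in *gro-RNAi*, 23.1, 28.5 and 5.05 in *Notch-RNAi*, and 0 in each control library. Neither RNAi group overlapped control. Against a floor of 3 reads over the 3 control libraries together, its RPM was at least 2.6-fold higher in *gro-RNAi* and at least 15.8-fold higher in *Notch-RNAi*. The floor leaves out the counting error of the RNAi reads, and the exact 95% intervals of the ratios, which cover both, began at 1.6 and 12.5. In *gro-RNAi* library 1 the value is a single read. The limma test gave an adjusted p of 0.00061 for *Notch-RNAi* and 0.0093 for *gro-RNAi*, and the exact permutation test gave a two-sided p of 0.1 for each, the smallest that 3 libraries against 3 allow. Its host *CG3902* measured 14.3, 17.8 and 13.9 FPKM in *gro-RNAi*, 34.1, 38.2 and 24.9 FPKM in *Notch-RNAi*, and 20.9, 23.9 and 17.8 FPKM in control, and did not pass the test in either comparison (limma, adjusted p = 0.23 and 0.053).

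Psi18S-1086 (FBgn0083058, chromosome 3L, 833062 to 833209, minus strand), a guide for 18S ribosomal RNA in the splicing factor gene *Sf3b3*, had reads in every library, though few in *gro-RNAi* and control. It had 5, 2 and 3 reads in *gro-RNAi*, 17, 24 and 13 in *Notch-RNAi*, and 3, 8 and 4 in control. The 3 *Notch-RNAi* libraries, at 0.909, 1.40 and 0.650 RPM, lay above the 0.254, 0.602 and 0.328 of control. Pooled over libraries, its rate was 2.4 times that of control (95% exact interval 1.34 to 4.58, counting error only), and its log2 fold change was 1.35 ± 0.35 (SE; limma, adjusted p = 0.021). It was also lower in *gro-RNAi* than in *Notch-RNAi*, at -1.71 on the log2 scale (limma, adjusted p = 0.025). *Sf3b3* itself changed by -0.47 on the log2 scale in *Notch-RNAi* without passing the test (limma, adjusted p = 0.50).

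The other calls with reads in every library were Psi28S-291 and Psi28S-3385b. Psi28S-291, in *RpL3*, had 1, 1 and 4 reads in *gro-RNAi*, 13, 6 and 12 in *Notch-RNAi*, and 2, 1 and 1 in control, a pooled ratio of 5.17 for *Notch-RNAi* (interval 1.83 to 20.2) and a difference of 2.33 ± 0.59 on the log2 scale (limma, adjusted p = 0.018). Psi28S-3385b, in *kra*, had 3, 1 and 2 reads in *gro-RNAi*, 6, 9 and 5 in *Notch-RNAi*, and 2 in each control library, a pooled ratio of 2.22 whose interval of 0.861 to 6.77 includes 1. The *Notch-RNAi* and control libraries did not overlap for either gene. Leaving out 1 library at a time, each of these genes and Psi18S-1086 was called in 5 of 9 fits. After centring, Psi28S-291, Psi28S-3385b and Psi18S-1086 did not pass (limma, adjusted p = 0.071, 0.13 and 0.14). Nor did they pass after quantile normalization (limma, adjusted p = 0.073, 0.11 and 0.094) or without a filter (limma, adjusted p = 0.060, 0.053 and 0.065). Psi28S-291, Psi28S-3385b, Psi28S-3342, Psi18S-1389b, Or-CD9a, *RpL22* and *SC35* fall outside the naming rule, having been picked once their values were known.

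Psi28S-1175b (FBgn0083004, chromosome 2R, 22607232 to 22607372, plus strand, in *RpS16*) was the member with the largest called fold in both comparisons with control. It had 1, 2 and 4 reads in *gro-RNAi*, 4, 4 and 2 in *Notch-RNAi*, and none in control. In FPKM it measured 11.8, 43.1 and 65.9 in *gro-RNAi*, 37.3, 40.6 and 17.5 in *Notch-RNAi*, and 0 in each control library. Its fitted log2 fold changes of 8.34 ± 0.58 in *gro-RNAi* (limma, adjusted p = 0.00066) and 8.22 ± 0.58 in *Notch-RNAi* (limma, adjusted p = 0.00012) depend on the constant of 0.1. In reads, against a floor of 3 over the control libraries, the RPM was at least 2.6-fold higher in *gro-RNAi* and at least 2.22-fold higher in *Notch-RNAi*, and the exact intervals of the ratios began at 1.6 and 1.5. With no control read it could only be higher in these comparisons. *RpS16* had log2 fold changes of -0.24 and -0.25 (limma, adjusted p = 0.62 and 0.51).

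A set of 4 guides had reads in *Notch-RNAi* alone, and these had to differ. Psi18S-1377d had 4, 2 and 1 reads in *Notch-RNAi*, Psi18S-1397 had 4, 1 and 1, Psi18S-1389b had 1, 2 and 1, and Psi18S-525h had 1 in each. All were at 0 in *gro-RNAi* and in control. The remaining genes among the 10 largest called folds, Psi28S-3316e, Psi18S-525g, Psi18S-920, CG31191-a and Psi18S-1377b, were above 0 in all *Notch-RNAi* libraries and in *gro-RNAi* library 3 only, and at 0 in control. The 4 of these with whole reads had 3 or 4 reads in *Notch-RNAi*, and the intervals of their ratios to control began at 0.276 to 0.44, so that these reads did not differ beyond counting error.

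**Figure D3:**
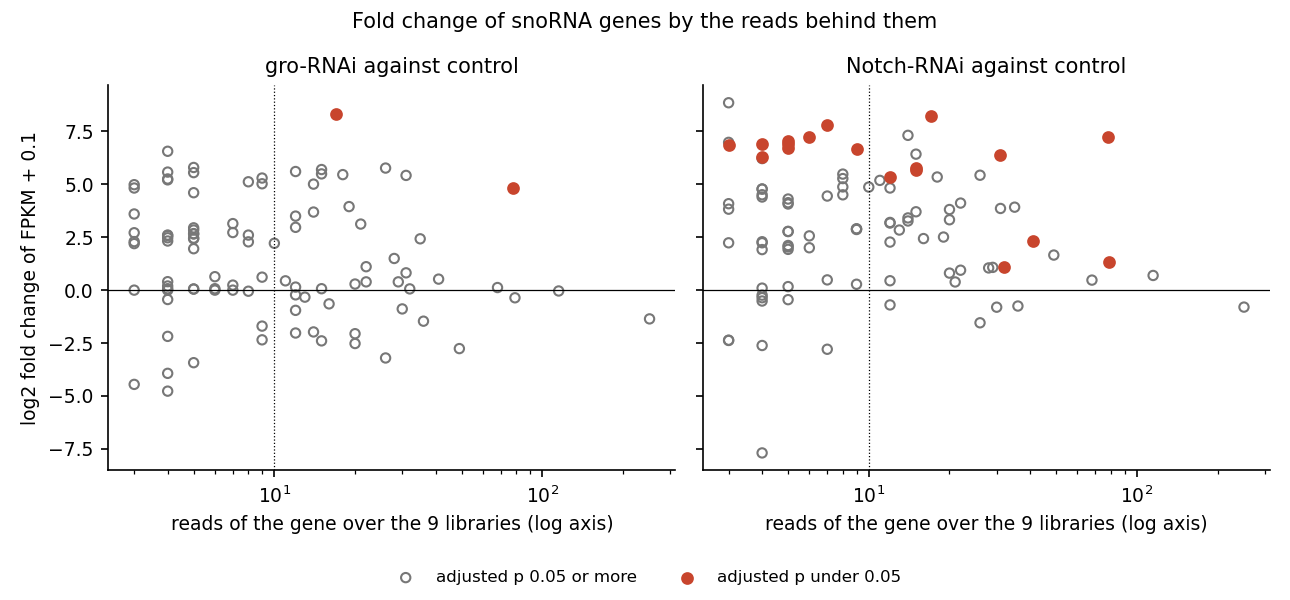
Log2 fold change of FPKM + 0.1 against the reads of the gene over the 9 libraries (log axis) for the 97 members with whole reads, in *gro-RNAi* against control and *Notch-RNAi* against control. Red points passed the limma test, 2 and 18 genes, and 9 of the 18 lie left of the dotted line at 10 reads.

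Within the classes, 18 of 76 Psi members and 0 of 9 Me members were called higher in *Notch-RNAi*. The Psi share of 23.7% was close to the 24.4% called higher over all tested genes. Of the 9 Me members, 1 had an unadjusted p under 0.05 in the limma test. Median log2 fold changes were 2.89 for Psi and 2.78 for Me, a difference of 0.12. These medians are not on a common scale. One read stood for a median of 15.3 FPKM on Psi genes and 222 FPKM on the Me genes with whole reads, so the same reads give unlike folds. Me28S-G2703c, in *Uhg5*, changed by 5.43 ± 2.70 (SE) on the log2 scale without passing the test (limma, adjusted p = 0.16). It was the Me gene with the most reads, 3, 2 and 4 in *gro-RNAi*, 2, 10 and 3 in *Notch-RNAi*, and 0, 1 and 1 in control. Its pooled ratio to control was 5.01 in *gro-RNAi* (interval 1.04 to 47.6) and 5.00 in *Notch-RNAi* (interval 1.16 to 45.1). The other Me genes with the highest control means had single reads: Me18S-U1356b averaged the most in control through 2 reads in 1 library, and Me28S-C3420a, Me18S-C1968 and Me18S-A1576 had 3, 2 and 2 control reads. The difference between the medians of the classes was not tested, and with a library left out it ran from -2.39 to 3.10. Among orphans, Or-CD9a was called higher in *Notch-RNAi*, with 863, 1513 and 7834 FPKM in *gro-RNAi*, 11911, 17279 and 6077 FPKM in *Notch-RNAi*, and 1664, 2659 and 258 FPKM in control (limma, log2 fold change 3.37 ± 0.98, adjusted p = 0.031), but it shares an exon with *Nop60B* and its values were no whole reads.

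For loss of Groucho, *gro-RNAi* was compared with control in the same fit. Of the 105 members 2 were higher, Psi28S-1175b and Psi28S-2566, and none was lower, while 15 had an unadjusted p under 0.05. Over all genes 7.49% were called, 6.26% higher and 1.23% lower, so the share among members (1.90%) was below the background. The median log2 fold change was 1.5, against 0.27 over all tested genes, and it was 0.01 when *gro-RNAi* library 3 was left out. Without *gro-RNAi* library 1 or control library 2 the calls numbered 7 and 4, and after centring 2 members were higher and 2 lower. With a pseudocount of 10 FPKM, which is nearer to the value of 1 read, only Psi28S-1175b was called and the median was 0.37.

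The member with the most reads had lower values in *gro-RNAi*. Psi28S-2444 (FBgn0082987, chromosome 2R, 19443127 to 19443256, plus strand), a 28S guide in *RpL11*, had 20, 7 and 13 reads in *gro-RNAi*, 41, 42 and 17 in *Notch-RNAi*, and 28, 50 and 33 in control. These were 1.35, 0.863 and 1.23 RPM in *gro-RNAi*, 2.19, 2.44 and 0.850 RPM in *Notch-RNAi*, and 2.37, 3.76 and 2.70 RPM in control. *gro-RNAi* did not overlap control, *Notch-RNAi* did, and the pooled ratio to control was 0.401 in *gro-RNAi* (interval 0.272 to 0.581) and 0.601 in *Notch-RNAi* (interval 0.454 to 0.795). The fold change in *gro-RNAi* of -1.36 ± 0.38 on the log2 scale did not pass the test (limma, adjusted p = 0.066; exact permutation p = 0.1), but did after centring (limma, adjusted p = 0.037) and without *Notch-RNAi* library 3 (limma, adjusted p = 0.021). In *gro-RNAi* it was thus called in 1 of 10 alternative settings and in 1 of 9 fits with a library left out. After centring it was also lower in *Notch-RNAi* (limma, log2 fold change -1.30, adjusted p = 0.041). In *Notch-RNAi* that was 1 of 10 alternative settings, with 0 of 9 fits with a library left out. *RpL11* had log2 fold changes of -0.23 and 0.00 in *gro-RNAi* and *Notch-RNAi* (limma, adjusted p = 0.61 and 1).

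Psi18S-525a, in *Arpc2*, was the other member whose *gro-RNAi* libraries all lay below control, with 4, 1 and 1 reads in *gro-RNAi*, 6, 3 and 5 in *Notch-RNAi*, and 8, 4 and 4 in control (limma, log2 fold change -1.47 ± 0.44 in *gro-RNAi*, adjusted p = 0.076). Of the 105 members, 2 lay below every control library in all *gro-RNAi* libraries and 8 lay above. The share of all tested genes with such a separation was not counted. In *gro-RNAi* libraries 2 and 3 Psi18S-525a stood on a single read each, and no interval of its pooled ratio is given here. It was called lower after centring, after quantile normalization and with a replicate block (limma, adjusted p = 0.029, 0.047 and 0.020). It also passed without *gro-RNAi* library 1 (limma, adjusted p = 0.036). These were 3 of 10 alternative settings and 1 of 9 fits with a library left out. Of the 7 other Psi18S-525 members in the same host, Psi18S-525b, Psi18S-525g, Psi18S-525h and Psi18S-525j had no control read. The 8 Psi18S-525 genes together had 7, 6 and 10 reads in *gro-RNAi*, 13, 18 and 10 in *Notch-RNAi*, and 9, 11 and 4 in control. Psi18S-176 and Psi18S-841d complete the 5 lowest adjusted p in this comparison, where Psi18S-176 had 2, 1 and 3 reads and Psi18S-841d 2, 2 and 1 reads in *gro-RNAi*, against a single control read each (limma, adjusted p = 0.073 and 0.074).

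Well-read guides without a call included Psi18S-531, in the noncoding gene *lncRNA:CR42491*, with 12, 3 and 11 reads in *gro-RNAi*, 20, 20 and 23 in *Notch-RNAi*, and 9, 8 and 9 in control. All 3 *Notch-RNAi* libraries, at 1.07, 1.16 and 1.15 RPM, lay above the 0.763, 0.602 and 0.738 of control. The pooled ratio of Psi18S-531 to control was 1.11 in *gro-RNAi* (interval 0.621 to 2.00) and 1.62 in *Notch-RNAi* (interval 1.01 to 2.66), and its limma adjusted p was 0.96 and 0.14. Psi28S-1192d, in *RpS5a*, had 5, 6 and 4 reads in *gro-RNAi*, 7, 15 and 12 in *Notch-RNAi*, and 7, 10 and 2 in control, and all 3 groups overlapped. Its pooled ratio of 1.19 in *Notch-RNAi* had an interval of 0.662 to 2.22.

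**Figure D4:**
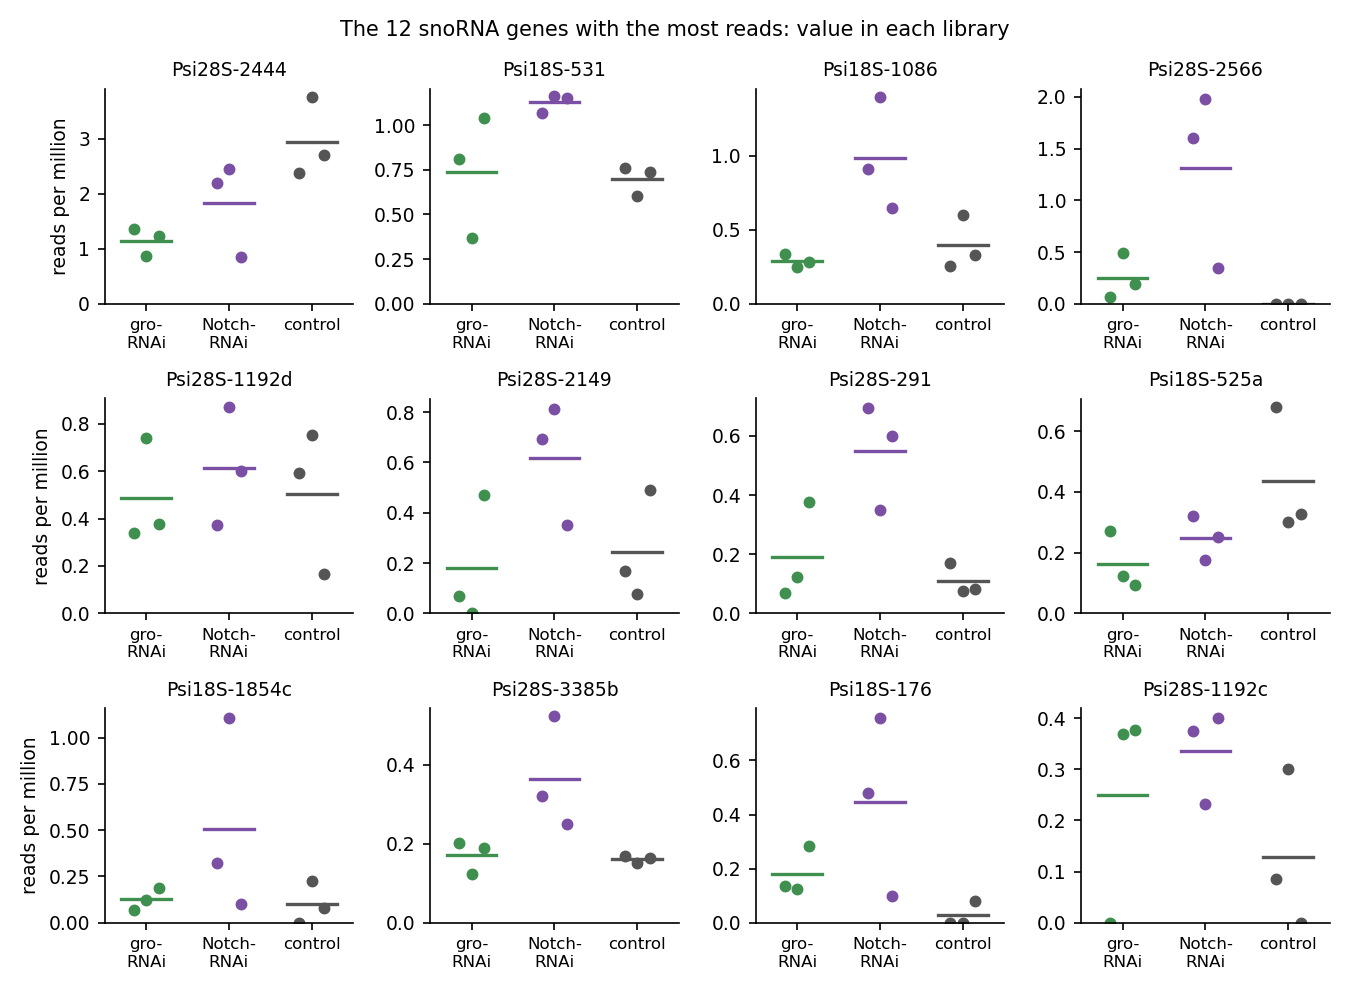
RPM of the 12 members with the most reads, 1 point per library and a line at the group mean, with *gro-RNAi* and *Notch-RNAi* left of control. Psi18S-1086, Psi28S-2566, Psi28S-291, Psi28S-3385b, Psi18S-531 and Psi18S-176 lie above control in all 3 *Notch-RNAi* libraries. Psi28S-2444 and Psi18S-525a lie below control in all 3 *gro-RNAi* libraries.

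Set directly against each other, *gro-RNAi* and *Notch-RNAi* differed in 6 members, all lower in *gro-RNAi*, where 7.46% of all tested genes were called and 4.86% were lower. They were Psi18S-1086, Psi28S-3342, Psi18S-1377d, Psi18S-1397, Psi18S-1389b and Psi18S-525h. The median log2 fold change of the members was -1.66, against -0.18 over all tested genes. For 5 of the 6 the *gro-RNAi* libraries held no read at all, so these could only be lower in *gro-RNAi*. Of these, Psi18S-1377d, Psi18S-1397, Psi18S-1389b and Psi18S-525h met the rule through *Notch-RNAi* alone, so their calls are not independent of it. Psi28S-3342 had 0 reads in *gro-RNAi* and 4, 5 and 2 in *Notch-RNAi*, with 0, 1 and 0 in control, and Psi18S-1086 alone had more than 3 reads in both groups. Without *gro-RNAi* library 3 the calls numbered 10. The *Notch-RNAi* libraries were the deeper ones, at 17200000 to 20000000 reads against 8110000 to 14800000 in *gro-RNAi*.

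Of the 39 host genes tested, 4 were higher and 0 lower in *gro-RNAi*, where 6.26% of all genes were higher and 1.23% lower. The hosts called in *Notch-RNAi* were 4 higher and 3 lower, beside 24.4% and 4.29% over all tested genes. The hosts had median log2 fold changes of -0.07 and -0.06 in *gro-RNAi* and *Notch-RNAi*. The 16 ribosomal protein hosts had medians of -0.27 and -0.25, and 1 of them, *RpL22*, was called, lower in *Notch-RNAi*. None of the 18 called members with a host in *Notch-RNAi*, and neither of the 2 in *gro-RNAi*, lay in a called host. Conversely, *SC35*, a splicing factor gene with 2 members, had log2 fold changes of 1.26 and 1.21 (limma, adjusted p = 0.0089 and 0.0035) while neither of its members was called, on 19 reads in all. Summed over the 12 members of each, reads in *RpS5a* were 12, 18 and 17 in *gro-RNAi*, 30, 54 and 32 in *Notch-RNAi*, and 15, 24 and 6 in control, and reads in *Arpc2* were 13, 8 and 14 in *gro-RNAi*, 22, 24 and 14 in *Notch-RNAi*, and 12, 13 and 6 in control. The 6 members in *dom*, a chromatin remodeller gene, had 3, 4 and 6 reads in *gro-RNAi*, 9, 12 and 8 in *Notch-RNAi*, and 2, 0 and 0 in control, and *dom* itself was not called (limma, adjusted p = 0.18 and 0.11).

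**Figure D5:**
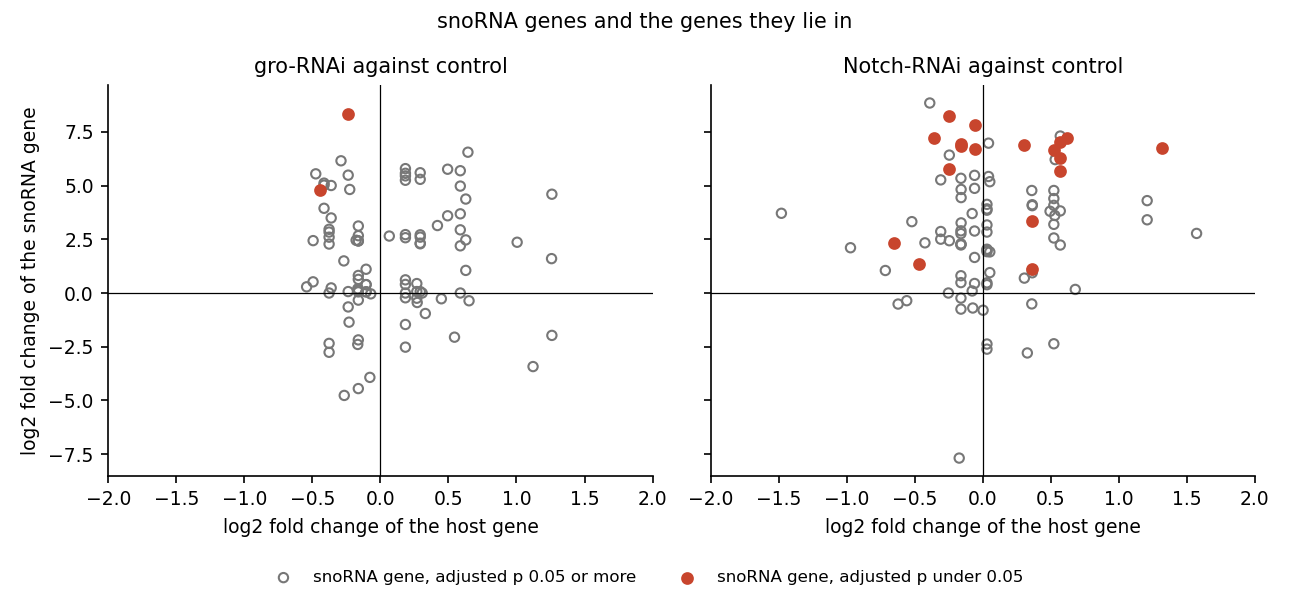
Log2 fold change of FPKM + 0.1 of each member (vertical) against that of the gene it lies in (horizontal), in *gro-RNAi* against control and *Notch-RNAi* against control. Members range from -7.69 to 8.85 in *Notch-RNAi*, and none of the called members, in red, lay in a called host.

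Core proteins bind each class of snoRNA, and other factors assemble the particles. Of 11 snoRNP and assembly genes, 1 was higher in *gro-RNAi* and 4 were higher in *Notch-RNAi*, with none lower. Over all tested genes 6.26% were higher in *gro-RNAi* and 24.4% in *Notch-RNAi*. The median log2 fold changes of the 11 were 0.45 and 0.41, against 0.27 and 0.46 over all genes. Among the C/D core proteins, *nop5*, the fly Nop58, measured 203, 250 and 260 FPKM in *gro-RNAi* and 217, 221 and 218 FPKM in *Notch-RNAi*, against 155, 163 and 137 FPKM in control, and was higher in both (limma, log2 fold change 0.64 ± 0.14 and 0.53 ± 0.14, adjusted p = 0.030 and 0.023). These calls held in 5 and 7 of 10 alternative settings and in 4 and 6 of 9 fits with a library left out. After centring, which removes the shift of all genes, *nop5* stood at 0.28 and 0.03 on the log2 scale and neither value passed (limma, adjusted p = 0.48 and 0.93). *Fib*, the methyltransferase, did not pass the test, at 0.26 and 0.41 (limma, adjusted p = 0.42 and 0.12), nor did *Nop56*. Among the H/ACA core proteins, *NHP2* was higher in *Notch-RNAi* (limma, log2 fold change 0.71 ± 0.20, adjusted p = 0.031), and *Nop60B* measured 204, 203 and 208 FPKM in *gro-RNAi*, 163, 183 and 166 FPKM in *Notch-RNAi*, and 174, 117 and 115 FPKM in control without passing the test (limma, adjusted p = 0.061 and 0.15). *Nop10*, *Gar1* and *CG10341*, the fly Naf1, were not called. The AAA ATPases *pont* and *rept*, which act in snoRNP assembly, were higher in *Notch-RNAi* by 0.94 ± 0.21 and 0.88 ± 0.20 on the log2 scale (limma, adjusted p = 0.012 each). Centring ended the calls of *NHP2*, *pont* and *rept*, at 0.20, 0.44 and 0.37 on the log2 scale (limma, adjusted p = 0.65, 0.16 and 0.25), and they held in 4, 8 and 7 of the 9 fits with a library left out. *Nopp140*, a nucleolar chaperone, was not called.

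Of the 7 Uhg genes in the table, *Uhg7* was higher in *gro-RNAi* (limma, log2 fold change 1.26 ± 0.30, adjusted p = 0.040), and in *Notch-RNAi* *Uhg3* was higher, by 1.11 ± 0.31, and *Uhg1* lower, at -0.67 ± 0.21 (limma, adjusted p = 0.026 and 0.038). Over all tested genes 6.26% were higher in *gro-RNAi*, and 24.4% were higher and 4.29% lower in *Notch-RNAi*. The Uhg calls were easily lost. With a library left out, *Uhg7* was called in 1 of 9 fits, *Uhg3* in 3 and *Uhg1* in 4, and of 10 alternative settings they passed in 4, 7 and 6. *Uhg7* measured 178, 374 and 229 FPKM in *gro-RNAi* and 110, 129 and 78.7 FPKM in control, while its only member, Me28S-A2634c, had no value above 3 FPKM in *gro-RNAi* and 0 FPKM in control. *Uhg5* and *Uhg4*, which held 2 and 3 members, were not called in either comparison.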

How the data were processed

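RNA of sorted cells was extracted with a PicoPure kit, amplified with a RiboAmp kit and sequenced on an Illumina GA II. The authors deposited FPKM for 17481 genes in 9 libraries. The submitters' processing notes name STAR 2.5.2b and BDGP6, and the tool that computed FPKM and any selection of RNA by size or polyadenylation are not given in the sources used here. Each column was matched to a sample by its name, and 0 columns belonged to no sample. Symbols, positions and hosts came from Ensembl release 115 (genome release 6), which need not be the authors' annotation.

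The 11493 genes that averaged 0.1 FPKM or more were fitted as log2(FPKM + 0.1) with limma 3.58.1 in R 4.3.3 (lmFit, eBayes with trend), jointly over the 9 libraries and with no block. Adjustment was by Benjamini-Hochberg over all tested genes, and an adjusted p under 0.05 is a call. The fit was tested on simulated data that gave every gene the same transcript length, far longer than a snoRNA gene. That test therefore did not cover single reads on short genes. Depth was estimated from the steps of 1 read on transcripts of at least 2500 nt, and reads of snoRNA genes from the FPKM of 1 read at their length. Ratios of pooled reads have exact (Clopper-Pearson) intervals at 95%, and a floor is 3 reads. Python 3.11.15 (scipy 1.17.1, numpy 2.4.6, pandas 2.3.3, matplotlib 3.10.9) did the rest.

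The members and lists were chosen with earlier results of these data known. The naming rule took, for each comparison with control, the 10 called members with the largest fold (or the 5 lowest adjusted p where fewer than 5 were called), the 5 Psi and 5 Me genes with the highest control means, their hosts, the snoRNP and Uhg genes, *gro* and *N*. The alternatives were other pseudocounts and filters, centring, quantile normalization, fits of 6 libraries only, a single prior variance, a replicate block, orphans added to their class, members above 0 in all 9 libraries and each library left out. The call counts among members with at least 10 reads were added after the data were seen.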

Additional observations from a re-analysis of the deposited data

How the results depend on the processing

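In *gro-RNAi* against control the 2 called members became 1 with a pseudocount of 1 or 10 FPKM, 4 (2 higher and 2 lower) after centring, and 0 among the 14 members above 0 FPKM in all 9 libraries. Leaving out each library gave 2 to 7, with 7 without *gro-RNAi* replicate 1 and 4 without control replicate 2. The median of the members stayed above 0, from 0.01 to 1.91 with a library left out, the lowest without *gro-RNAi* replicate 3. The difference of the Psi and Me medians, -2.18, was -0.62 with a pseudocount of 10 FPKM and -2.24 to -0.14 with a library left out, the smallest without control replicate 2 or 3. The class medians are not on a common scale, because a read is worth more FPKM on Me than on Psi genes. In *Notch-RNAi* against control the 20 called members became 6 without a filter, where 17481 genes were tested, 4 among the members above 0 in all libraries, 9 among the 44 with at least 10 reads, and 7 to 21 with a library left out, with 9, 7 and 12 without *Notch-RNAi* replicate 1, *Notch-RNAi* replicate 2 and control replicate 3. The median of 3.17 was 1.97 and 0.74 with a pseudocount of 1 or 10 FPKM, 1.00 among the members above 0 in all libraries, and 2.77 to 3.78 with a library left out. The difference of the Psi and Me medians, 0.12, ran from -2.39 to 3.10 with a library left out, taking both signs. In *gro-RNAi* against *Notch-RNAi* the 6 calls became 1 among the members above 0 in all libraries, 2 among those with at least 10 reads, and 4 to 10 with a library left out, the 10 without *gro-RNAi* replicate 3. Their median of -1.66 was -0.37 with a pseudocount of 10 FPKM and -1.87 to -0.87 with a library left out. Larger pseudocounts shrink fold changes by construction, and the other causes were not tested. Over all genes, centring turned the share of calls that were higher to 40.7% in *gro-RNAi* and 42.5% in *Notch-RNAi*, against 83.6% and 85.1% without it. Same-numbered libraries showed little shared deviation (correlations of -0.046 to 0.072). Libraries of different numbers were not correlated as a reference, so whether the numbers pair the samples was not settled. A replicate block gave 4, 22 and 6 called members in the 3 comparisons, with 1 lower in *gro-RNAi* and 2 lower in *Notch-RNAi* against control. A member had a median of 9 reads over all libraries, and no alternative varied the depth.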
